A study of Xenopus tropicalis with 18 samples.

Results

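The comparison set 3 libraries of foregut from cyclopamine-treated Xenopus tropicalis embryos against 3 libraries of control foregut, 6 of the 18 libraries of the study, chosen by their labels. Each library came from 8 pooled explants that held both mesoderm and endoderm, cut from wild-type Nigerian stock embryos at tailbud stage 33. Cyclopamine was given at 40 µM from stage 15 until harvest. Control foregut came from embryos that had 0.1% DMSO and, at the 2-cell stage, 1 ng of a morpholino with a 5-base mismatch (500 pg per cell). The labels of the cyclopamine libraries name neither DMSO nor a mismatch morpholino, so the drug and the absence of a morpholino cannot be told apart if these embryos were not injected. The other foregut groups, used here for tests of difference, were kept from stage 15 in 100 nM BMS493, which inhibits signalling by retinoic acid receptors, or injected with 1 ng of a morpholino against Rfx6, a transcription factor of gut endoderm, in 0.1% DMSO. The labels of the BMS493 libraries also name neither DMSO nor a morpholino. The same limit therefore holds for BMS493 against control foregut and for cyclopamine against the Rfx6 morpholino. Control hindgut and control head with pharynx, in 0.1% DMSO without a stated morpholino, gave the level of each gene at either end of the gut (3 libraries in each of the 6 groups).

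Hedgehog ligands such as Sonic hedgehog are made by the gut endoderm and received mainly by the surrounding mesoderm. Without ligand, Patched holds Smoothened inactive, and with ligand Smoothened is released and activates Gli transcription factors. Cyclopamine binds Smoothened and blocks it. In vertebrate embryos the signal from foregut endoderm maintains the splanchnic mesoderm that forms the smooth muscle and connective tissue of the trachea, lung, oesophagus and stomach. The comparison asks which foregut genes depend on this signal at the time when organ territories are being laid out. The tables give gene identifiers without names, and 0 of 28863 were matched to the 28858 genes of the RefSeq reference table. The levels of Hedgehog pathway genes and of cell type markers are therefore not analysed here, and neither the block of the pathway nor the labelled tissue was checked against its defining genes. Genes are described by where in control embryos they were expressed.

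The 6 libraries held 26006163 to 75117453 counts. The SD of the difference in log2 counts per gene between replicates was 0.27 to 0.39 for cyclopamine pairs, against 0.46 to 0.59 for control foregut pairs, where both pairs with control replicate 2 had 0.58 and 0.59. Replicate 3 of both other treated foregut groups also stood apart (0.50 for BMS493 and 0.68 for the Rfx6 morpholino, against 0.28 and 0.30 between replicates 1 and 2). The cyclopamine pairs had the same order by a smaller margin, with 0.27 between replicates 1 and 2 and 0.37 and 0.39 in the pairs with replicate 3. Replicate 3 had the fewest counts in each treated group, and the part of depth in this order was not tested. Chi-square per gene, which sets differences against sampling noise, did not keep it. Between replicates 1 and 2 it was 30.6 for cyclopamine and 56.3 for the Rfx6 morpholino. In the pairs with replicate 3 it was 20.3 and 50.3, and 40.1 and 49.6.

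Calls were made with edgeR's quasi-likelihood test on all 12 foregut libraries, at a p adjusted by Benjamini-Hochberg of less than 0.05. In cyclopamine foregut 1897 of 18542 tested genes were higher (10.2% of those tested) and 1801 were lower (9.71%), together 19.9%. Most of these changes were small: 82.9% of called genes changed less than 2-fold, with a median size of 0.49 on the log2 scale. At least 2-fold changes were seen in 339 genes that rose (1.83%) and 292 that fell (1.57%), together 631 (3.4%). The larger changes were mostly increases, with 138 genes that rose and 24 that fell at least 4-fold, and 60 and 2 at least 8-fold. Of 14844 genes that were not called, 11960 had a 95% interval of the fold change that lay within 2-fold in both directions. For the remaining genes a 2-fold change was not excluded at this depth and spread.

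Groups rarely overlapped among the genes changed at least 2-fold. In 330 of the 339 that rose, every cyclopamine library had more length-scaled transcripts (TPM) than every control library, a pattern seen in 18.9% of all tested genes. In 268 of the 292 that fell, every cyclopamine library lay below every control library, a pattern seen in 13.9% of all tested genes. The call itself favours such genes, so these counts describe it and do not stand as further evidence. Genes that rose took 0.647, 0.637 and 0.585% of all counts in cyclopamine libraries, against 0.148, 0.193 and 0.158% in control libraries. Genes that fell took 0.376, 0.365 and 0.441% in cyclopamine libraries, against 1.01, 0.703 and 0.877% in control libraries. Both sets are thus a small part of the foregut transcriptome.

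The counts of calls changed when libraries were left out. Without cyclopamine replicate 1 there were 1053 higher and 900 lower genes, and without cyclopamine replicate 2 there were 1084 and 918, while without cyclopamine replicate 3 there were 1667 and 1546. With replicates 1 and 2 of each treated group summed, 602 and 469 were called, and 354 genes passed at 2-fold, 349 of them among the 631 counted above. The number that fell at least 2-fold was 174 without cyclopamine replicate 1, 177 without cyclopamine replicate 2 and 508 without control replicate 2. Scaling by total counts alone, in place of edgeR's composition scaling (TMM), gave 2529 higher and 1452 lower genes and moved the median log2 fold change of all genes to 0.05, against 0.0037 with TMM.

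A pair of identifiers that rose and a pair that fell are given as examples, those with the largest fold change among called genes with at least 10 TPM in every library of the higher group. Their molecular roles are not stated because the files do not pair them with names. XBXT10g016676 had 29.8, 29.6 and 26.5 TPM in cyclopamine foregut, against 1.63, 0.59 and 1.22 TPM in control foregut. All cyclopamine libraries were far above all control libraries, and the gene was close to silent in every control region, with means of 0.733 ± 0.43 TPM in hindgut and 0.827 ± 0.119 TPM in head with pharynx (SD, n = 3 each). The log2 fold change was 4.62 (SE 0.30, 95% interval 3.96 to 5.28, edgeR adjusted p = 3.82e-06). In the other treated groups it averaged 4.92 ± 0.624 TPM with BMS493 and 1.34 ± 0.263 TPM with the Rfx6 morpholino (SD, n = 3 each). Cyclopamine foregut was higher than both, by 2.66 on the log2 scale over BMS493 (SE 0.26, edgeR adjusted p = 2.74e-05) and by 4.36 over the Rfx6 morpholino (SE 0.29, edgeR adjusted p = 5.53e-06).

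XBXT10g016218 had 104, 103 and 98.6 TPM in cyclopamine foregut, against 5.37, 2.22 and 4.79 TPM in control foregut. The cyclopamine libraries lay within a narrow range, and control replicate 2 was the lowest of the controls. The log2 fold change was 4.60 (SE 0.26, 95% interval 4.02 to 5.18, edgeR adjusted p = 3.35e-06). Without control replicate 2 it was 4.28 for this gene and also 4.28 for XBXT10g016676. Control head with pharynx held 20.5 ± 4.77 TPM of XBXT10g016218 and hindgut 6.07 ± 2.12 TPM (SD, n = 3 each), so cyclopamine foregut exceeded every control region. It averaged 30.4 ± 2.1 TPM with BMS493 and 14.2 ± 0.103 TPM with the Rfx6 morpholino (SD, n = 3 each). Cyclopamine foregut was above both in the direct tests, by 1.87 on the log2 scale over BMS493 (SE 0.22, edgeR adjusted p = 0.000164) and by 2.81 over the Rfx6 morpholino (SE 0.23, edgeR adjusted p = 4.23e-05).

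XBXT10g003161 had 3.69, 2.47 and 2.96 TPM in cyclopamine foregut, against 12, 15.8 and 13.8 TPM in control foregut. The groups did not overlap, and cyclopamine foregut was at the level of control hindgut (3.51 ± 0.492 TPM, SD, n = 3). The log2 fold change was -2.19 (SE 0.28, 95% interval -2.81 to -1.58, edgeR adjusted p = 0.000301). Control head with pharynx had 23.4 ± 2.93 TPM (SD, n = 3), the highest of the control regions, and its log2 fold change of hindgut over head with pharynx was -2.46. Cyclopamine foregut was lower than BMS493 foregut, with a log2 difference of -1.97 (SE 0.28, edgeR adjusted p = 0.000249). Against the Rfx6 morpholino, with 4.68 ± 1.48 TPM (SD, n = 3), the difference of -0.62 (SE 0.29) did not pass (edgeR adjusted p = 0.143).

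XBXT10g011820 had 3.51, 3.57 and 3.33 TPM in cyclopamine foregut, against 13.3, 11.3 and 13 TPM in control foregut. Every cyclopamine library was below every control library. The log2 fold change was -1.86 (SE 0.21, 95% interval -2.32 to -1.40, edgeR adjusted p = 0.00019). This gene was highest in control foregut, lower in hindgut at 4.43 ± 0.101 TPM and close to absent in head with pharynx at 0.14 ± 0.0265 TPM (SD, n = 3 each). The direct tests did not separate cyclopamine from BMS493 (4.24 ± 1.17 TPM, log2 difference -0.18, SE 0.20, edgeR adjusted p = 0.519) or from the Rfx6 morpholino (5.05 ± 0.867 TPM, log2 difference -0.59, SE 0.20, edgeR adjusted p = 0.0654; SD, n = 3 each).

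**Figure D1:**
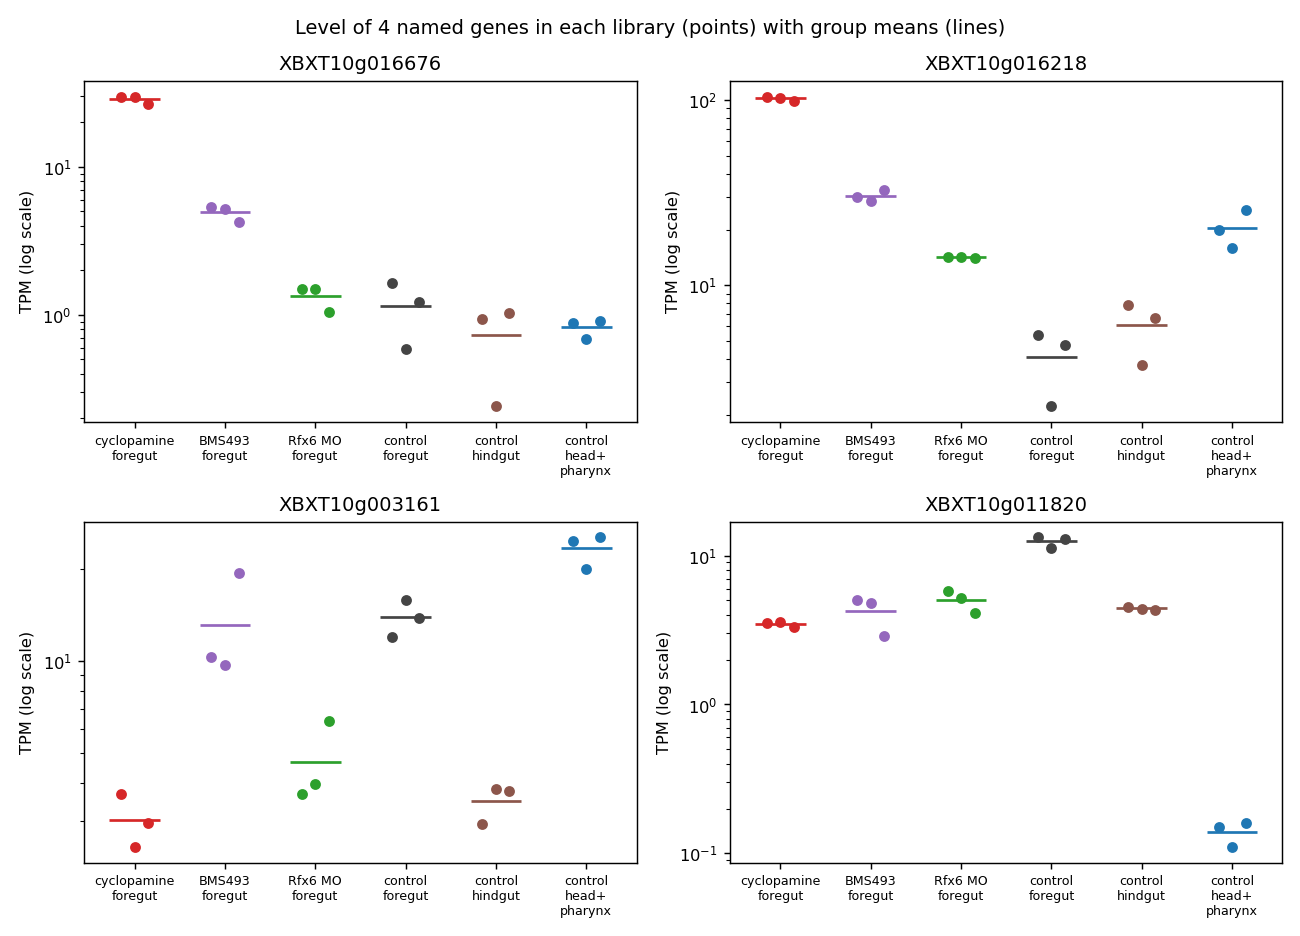
TPM (log scale) of the 4 named genes in every library of the 3 treated foregut groups and the 3 control regions, with points for libraries and lines for group means. Both genes in the upper row stand above every other group in cyclopamine foregut, whereas XBXT10g003161 sits near the hindgut level and XBXT10g011820 near the level of the other treated groups.

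Genes higher in control head with pharynx than in control hindgut rose more often than they fell in cyclopamine foregut, and genes higher in control hindgut than in head with pharynx fell more often than they rose. The share that fell was not greatest in the most hindgut-skewed class: it was 24.3% at 2 to 4-fold, 29.9% at 4 to 16-fold and 22.3% above 16-fold. Of all tested genes 10.2% rose and 9.71% fell. Genes were sorted by their fold change between control hindgut and control head with pharynx, from a fit without any foregut library, so the sorting shares no library with the drug comparison. Among 423 tested genes more than 16-fold higher in head with pharynx than in hindgut, 114 rose and 5 fell, and the median log2 fold change was 1.10. At least 2-fold increases made up 23.2% of them, where the share of all tested genes was 1.83%. Many of these genes were near the floor in control foregut, where a fall can hardly be called, which favours the balance of 114 to 5. Of the 169 with a mean of at least 10 TPM in control head with pharynx, 93 were under 1% of that level in control foregut. This class held 500 genes in all, of which 77 did not pass the expression filter of the foregut fit. That filter used every foregut library, so a gene expressed only with BMS493 or the Rfx6 morpholino could pass it. The 423 may thus include genes with few counts in both cyclopamine and control foregut. The shares of the 423 and their median of 1.10 rest on this mixed denominator. With no filter on low counts 23% of the 500 rose, with a median of 0.99. The share of tested head-restricted genes that rose, 27%, was 44.5% with DESeq2 and 58.9% in a fit of only the 6 libraries compared. These shares have different denominators, since each setting counts only the genes to which it gave an adjusted p. Among all genes entered, 1897 of 18542 rose in the reported fit and 1745 of 23435 with no filter. The numbers were 2157 of 18542 with DESeq2 and 1441 of 17767 with only the 6 libraries.

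The median then fell step by step along the axis. It was 0.20 in 773 genes 4 to 16-fold higher in head with pharynx (136 rose, 21 fell) and 0.09 in 1234 genes 2 to 4-fold higher there (201 rose, 58 fell). It was 0.02 in 12912 genes within 2-fold, of which 1334 rose and 1009 fell. On the hindgut side it was -0.23 in 1381 genes 2 to 4-fold higher in hindgut (58 rose, 335 fell), -0.39 in 804 genes 4 to 16-fold higher (31 rose, 240 fell) and -0.51 in 470 genes more than 16-fold higher (7 rose, 105 fell). At least 2-fold decreases reached 9.58% and 9.15% in these last classes, where the share of all tested genes was 1.57%. For calls of any size, as counted in each class above, the shares of all tested genes were 10.2% higher and 9.71% lower. With scaling by total counts alone the median was 0.22 over all genes at least 2-fold higher in head with pharynx and -0.26 over those at least 2-fold higher in hindgut, where TMM gave 0.18 and -0.30.

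**Figure D2:**
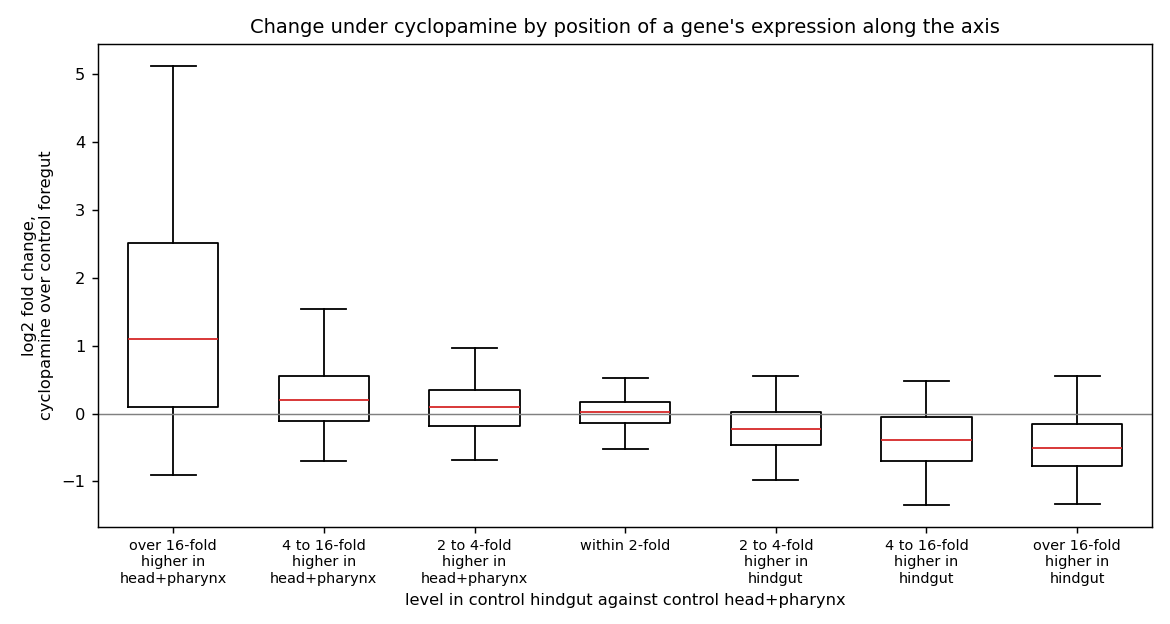
Log2 fold change of cyclopamine over control foregut for genes grouped by their fold change between control hindgut and control head with pharynx, drawn as boxes (quartiles and median) with whiskers that leave out the 5% of genes at either end. The median lies at 1.10 in the class over 16-fold higher in head with pharynx and at -0.51 in the class over 16-fold higher in hindgut.

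The share of the transcriptome held by these lists was measured in each library. The posterior list, 2619 genes at least 2-fold higher in hindgut than in head with pharynx (14.4% of 18236 tested), held 15.7, 15.3 and 16.7% of counts in cyclopamine foregut, against 19.8, 19.4 and 19.8% in control foregut. All cyclopamine libraries were below all control libraries. BMS493 foregut held 10.7, 10.7 and 9.12% and Rfx6 morpholino foregut 17, 16.2 and 16%. A posterior share below control was thus not particular to cyclopamine. The exact permutation p was 0.1 (two-sided), which no comparison of 3 with 3 libraries can go under, so none of the 5 lists compared could pass 0.05. Adjusted over the 5 lists it was 0.125, or 0.2 for the foregut-enriched list below. Of 2587 tested posterior genes, 678 fell and 90 rose (26.2% lower, against 9.71% of all tested genes). The share that fell was 13.2% without cyclopamine replicate 1 and 13.7% without cyclopamine replicate 2. Fewer genes fell over all tested genes in those fits as well, 900 of 18683 and 918 of 18673. The anterior list, 2506 genes at least 2-fold higher in head with pharynx (13.7%), held 3.31, 3.23 and 3.18% of counts in cyclopamine foregut, against 2.6, 2.7 and 2.61% in control foregut (exact two-sided permutation p = 0.1). BMS493 foregut held 4.91, 4.88 and 6.06% and Rfx6 morpholino foregut 2.6, 2.58 and 3.43%. An anterior share above control was thus also seen with BMS493, where it was larger than with cyclopamine. Of 2379 tested anterior genes, 451 rose and 81 fell (19% higher, against 10.2% of all tested genes). In bulk tissue, fewer cells of a type and less RNA per cell cannot be told apart, and this applies to every list described here.

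The 2 restricted lists are named for hindgut against head with pharynx alone. No foregut library was used to set them, so a hindgut-restricted gene may be well expressed in foregut. Hindgut-restricted genes (more than 16-fold higher in hindgut than in head with pharynx) held 5.14, 5.01 and 5.58% of counts in cyclopamine foregut, against 7.25, 6.95 and 7.42% in control foregut (exact two-sided permutation p = 0.1). Head-restricted genes (more than 16-fold higher in head with pharynx) held 0.194, 0.191 and 0.174% of counts in cyclopamine foregut, against 0.0827, 0.0653 and 0.0833% in control foregut, a ratio of means of 2.42 (exact two-sided permutation p = 0.1). The libraries of the 2 groups did not overlap in either list. In BMS493 foregut the head-restricted genes held 0.532, 0.528 and 1.06%, and with the Rfx6 morpholino 0.166, 0.163 and 0.403%. The hindgut-restricted genes held 3.23, 3.2 and 2.1% with BMS493, and 5.21, 4.82 and 4.81% with the Rfx6 morpholino.

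The level that head-restricted genes reached was low and uneven. For the 169 of them with a mean of at least 10 TPM in control head with pharynx, each library's TPM was expressed as a percentage of that mean. The median over genes was 3.67, 3.28 and 4% in cyclopamine foregut, against 0.37, 0.755 and 0.584% in control foregut. It was 28.5, 28.9 and 74.7% with BMS493. With the Rfx6 morpholino it was 1.37, 1.46 and 21.6%, so both of these groups had 1 library apart from the others and the cyclopamine libraries did not. In cyclopamine foregut 62 of the 169 genes stayed under 1% of the head with pharynx level, 31 lay between 1 and 5%, 42 between 5 and 20%, and 34 above 20%. In control foregut the same classes held 93, 33, 26 and 17 genes. Levels thus differed widely between genes, with quartiles of 0.0595 and 15.4% in cyclopamine replicate 1. The part that neighbouring head tissue in the explants may have in these levels was not tested.

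For the 231 hindgut-restricted genes with a mean of at least 10 TPM in control hindgut, the median over genes was 46.1, 45.1 and 53.2% of the hindgut mean in cyclopamine foregut, against 58.6, 68.8 and 63.9% in control foregut. The groups did not overlap. These genes were thus well expressed in foregut of both groups.

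Genes enriched in foregut itself were defined with the same control foregut libraries (444 genes at least 2-fold above both other regions, 2.39% of those tested), so a lower level in treated foregut is partly built in. Among the control regions only foregut had a stated morpholino, so region and injection cannot be told apart in this list. Of 443 tested, 132 fell and 6 rose, with a median log2 fold change of -0.63, where 9.71% of all tested genes fell and 10.2% rose. They held 0.993, 0.96 and 0.956% of counts in cyclopamine foregut, against 1.56, 0.968 and 1.54% in control foregut. Control replicate 2 lay among the cyclopamine libraries, so the groups overlapped (exact two-sided permutation p = 0.2). With BMS493 these genes held 0.635, 0.635 and 0.437% of counts, and with the Rfx6 morpholino 1.03, 0.963 and 0.705%. The share of these genes that fell was 57.9% without control replicate 2, and 17.2% without control replicate 1 or 17.3% without control replicate 3. It was 15.3, 15.1 and 18.5% without cyclopamine replicates 1, 2 and 3. The number of all tested genes that fell changed in these fits as well. Without control replicates 1, 2 and 3 it was 1336 of 18658, 2243 of 18875 and 1549 of 18875. Without cyclopamine replicates 1, 2 and 3 it was 900 of 18683, 918 of 18673 and 1546 of 18881.

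**Figure D3:**
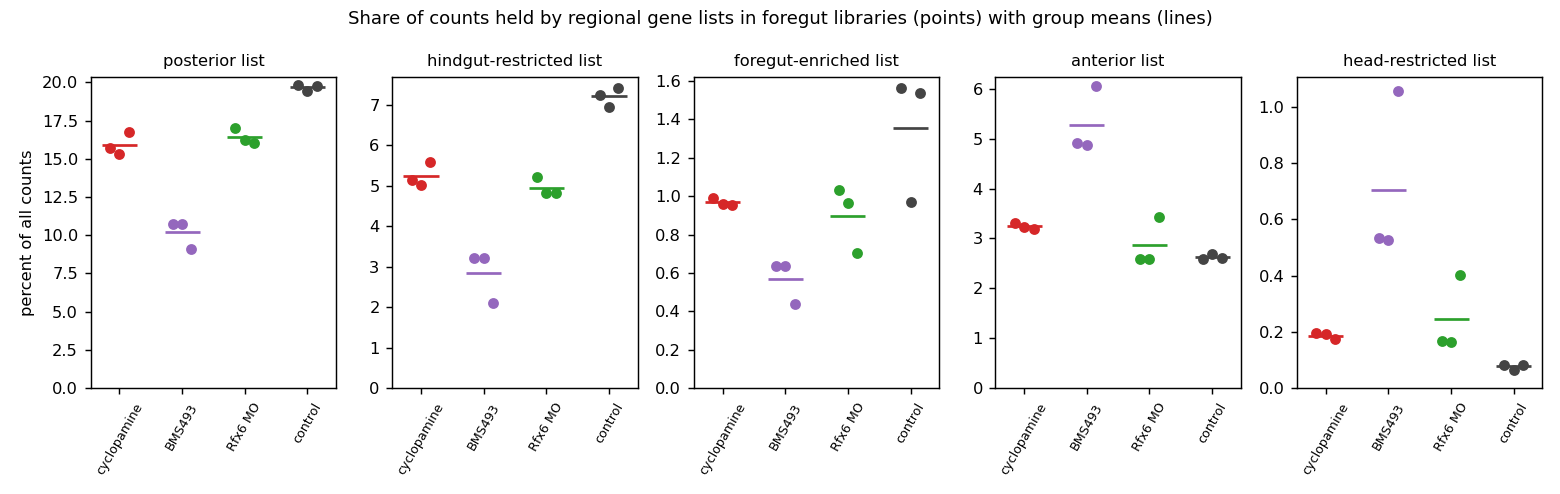
Percentage of all counts held by 5 regional gene lists in each foregut library (points) with group means (lines), cyclopamine at the left and control at the right of each panel. The restricted lists are set by hindgut against head with pharynx alone, without regard to foregut. Cyclopamine libraries lie below all control libraries for the posterior and hindgut-restricted lists and above them for the anterior and head-restricted lists, while for foregut-enriched genes control replicate 2 (0.968%) lies among them.

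Genes that rose at least 2-fold were set beside the 3 control regions by their mean TPM, with classes drawn after the values were seen. Head with pharynx was the highest control region for 254 of the 339 (74.9%) and for 56.5% of all tested genes. The largest class, 192 of 339 genes (56.6%), was highest in head with pharynx among the control regions and did not exceed that level under cyclopamine. Its median over genes was 1.56, 1.49 and 1.22 TPM in cyclopamine libraries, against 0.3, 0.33 and 0.35 TPM in control foregut, where head with pharynx libraries had 5.19, 4.87 and 5.33 TPM. BMS493 libraries were higher again, at 2.92, 3.12 and 3.63 TPM. Rfx6 morpholino libraries, at 1.195, 1.385 and 2.26 TPM, were also above control foregut. The class was capped by the level in the same cyclopamine libraries that the direct tests use, so the counts that follow describe it and are no further evidence. In the direct test 122 of the 192 were lower in cyclopamine than in BMS493 foregut and 4 were higher, where the shares of all tested genes were 17.9% and 20.8%. Against the Rfx6 morpholino 36 were lower and 28 higher, where the shares of all tested genes were 10.2% and 11.1%. Without Rfx6 morpholino replicate 3, which stood apart, this balance turned to 31 lower and 41 higher.

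A second class rose above all regions of the control embryo. In 72 genes (21.2% of those that rose) mean TPM in cyclopamine foregut was at least 2-fold above foregut, hindgut and head with pharynx alike, and both rising genes named above belong here. The median over these genes was 12.2, 10.8 and 9.6 TPM in cyclopamine libraries, against 1.86, 2.82 and 2.01 TPM in control foregut. It was 3.62, 3.61 and 2.94 TPM with BMS493 and 2.52, 2.54 and 2.55 TPM with the Rfx6 morpholino, below every cyclopamine library. These genes were picked for high values in the same cyclopamine libraries, which the direct tests also use. The medians above and the counts that follow thus describe these genes and are no further evidence. In the direct tests 64 of the 72 were higher than in BMS493 foregut, 61 higher than in Rfx6 morpholino foregut and 59 higher than in both, where the shares of all tested genes were 20.8%, 11.1% and 5.84%. Without BMS493 replicate 3 the last count was 53, and without Rfx6 morpholino replicate 3 it was 56. Another 56 genes exceeded every control region by less than 2-fold, 18 did not exceed hindgut, and 1 did not exceed control foregut. That gene had 4.91, 4.82 and 4.87 TPM in cyclopamine libraries, against 16.8, 2.17 and 2.34 TPM in control foregut, so its mean rests on control replicate 1.

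Genes that fell at least 2-fold were mostly those highest in foregut. Control foregut was the highest region for 186 of 292 (63.7%) and for 21.4% of all tested genes, and head with pharynx was the highest for 33 (11.3%) and for 56.5% of all tested genes. This too is favoured by sharing the control foregut libraries, and here as well region and injection cannot be told apart. In 159 of the 292, head with pharynx was the lowest control region and cyclopamine foregut stayed above it. Their median was 1.06, 1.04 and 1.23 TPM in cyclopamine libraries, against 3.24, 2.14 and 3.13 TPM in control foregut and 1.43, 1.19 and 1.3 TPM in hindgut. In 27 genes cyclopamine foregut was at least 2-fold below every control region, with a median of 0.36, 0.44 and 0.52 TPM in cyclopamine libraries, against 1.33, 1.67 and 1.27 TPM in control foregut. Another 67 lay below every region by less than 2-fold, and 39 stayed above hindgut as the lowest region.

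**Figure D4:**
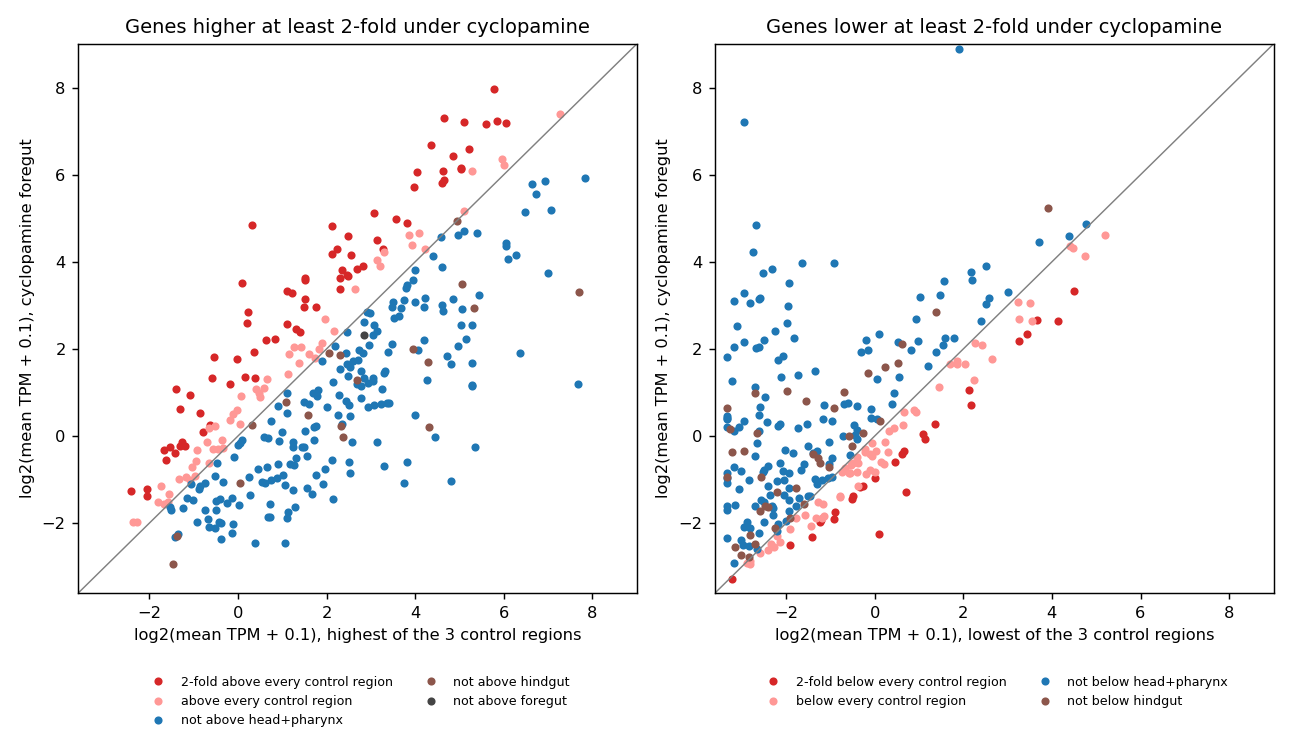
Mean level in cyclopamine foregut (vertical, log2 of TPM + 0.1) against the highest control region for the 339 genes that rose at least 2-fold (left) and against the lowest control region for the 292 that fell (right), with the diagonal marking equal levels. The 72 genes at least 2-fold above every control region form a band over the diagonal at the left, and the 192 that did not exceed head with pharynx lie under it.

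Direct tests showed which of these changes differed from those in the other treated foreguts. They share the cyclopamine libraries with the drug comparison. Over all tested genes cyclopamine foregut was higher than BMS493 foregut in 3864 (20.8%) and lower in 3312 (17.9%), and higher than Rfx6 morpholino foregut in 2053 (11.1%) and lower in 1883 (10.2%). With total counts alone the split against BMS493 turned to 2744 higher and 4557 lower. Of the 339 genes that rose at least 2-fold, 97 were higher and 126 lower than with BMS493, and 120 were higher and 46 lower than with the Rfx6 morpholino. In this set 78 (23%) were higher than in both groups, where the share of all tested genes was 5.84%, and 38 (11.2%) were lower than in both, where it was 3.99%. The count higher than in both was 68 without BMS493 replicate 3 and 75 without Rfx6 morpholino replicate 3. The set was chosen on these cyclopamine libraries, so nothing is read from the first share. For 71 of the 339 neither direct test separated the groups, against a larger share of all tested genes, 9647 of 18542. Of the 292 that fell at least 2-fold, 58 were lower and 52 higher than with BMS493, and 133 were lower and 2 higher than with the Rfx6 morpholino. Thus 36 (12.3%) were lower than in both groups, where the share of all tested genes was 3.99%. Neither test separated 104 of the 292, against the 9647 of all 18542 tested genes. These genes were chosen for low values in the same cyclopamine libraries, so nothing is read from the counts that were lower in cyclopamine.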

How the data were processed

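RNA from pooled explants was sequenced after a stranded mRNA library preparation, per the labels' protocols. The authors deposited an expected count for each gene and library, whole in 100% of values, and TPM values. The submitters' processing notes list Bowtie2 and RSEM 1.3.0. Build and annotation: not given in the sources used here. A row without a gene name held 0 counts. How reads were shared between near-identical gene copies is not stated, and a single identifier from such a family is uncertain. Library totals ran from 26006163 to 96814679 counts, which limits counting error only.

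Columns were tied to samples by their titles. The test was edgeR 4.0.16 under R 4.3.3 (quasi-likelihood, robust fitting, TMM, expression filter with a minimum count of 10, group as the only term), with Benjamini-Hochberg adjustment over all tested genes. The common biological coefficient of variation was 0.139. Hindgut and head with pharynx libraries were fitted separately to define the axis lists, and all control libraries for the foregut-enriched list. The step was tested on simulated data. Alternatives were DESeq2 1.42.0, other scaling, no filter, only the 6 libraries compared, a replicate block, summed replicates, lists at 4-fold and leaving out each cyclopamine or control replicate. Leaving out replicate 3 of the BMS493 or Rfx6 morpholino group was added after seeing the data. Gene lists by symbol, cell type markers and the rule naming genes by symbol could not be used, since no identifier matched. The fallback rule named 2 identifiers in each direction, as stated beside them. The comparison, lists and rules were chosen with earlier results of these data known. Separate parents or clutches are not stated for the pools, and p-values then measure only differences among these libraries, which may be technical. Deviations of same-numbered cyclopamine and control libraries from their group means correlated at 0.018, 0.049 and 0.075, so the numbers were not taken as pairs. No pair of foregut replicates agreed within sampling noise (chi-square per gene 3.21 to 56.3). The value of 3.21 was that of BMS493 replicates 1 and 2, and every other pair had 15.4 to 56.3. Whether BMS493 replicates 1 and 2 are separate pools was not tested, and the tests with BMS493 treat them as separate.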

Additional observations from a re-analysis of the deposited data

How the results depend on the processing

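The 4 named genes kept their direction and passed the threshold under all 15 alternatives. They were picked for large fold changes, so this does not extend to other calls. The counts of the direct tests with BMS493 and the Rfx6 morpholino over all tested genes stayed within 1.5 times of the reported ones under the 6 run for them. Leaving out a cyclopamine replicate and summing replicates 1 and 2 were not among these 6. Both moved the counts against control foregut, so the stability of the direct tests under them was not tested. With a replicate block for the number in the labels, 2151 genes were higher and 1988 lower, and no call on a named gene changed. Summing replicates 1 and 2 of each treated group, which leaves fewer libraries, gave 602 higher and 469 lower genes, 128 of them lower at least 2-fold. In that setting 9.37% of anterior and 17.6% of head-restricted genes were higher, and 8.07% of posterior and 8.58% of foregut-enriched genes lower. The 602 and 469 were out of 18353 tested genes, so calls were fewer over all genes too. Of head-restricted genes 44.5% were higher with DESeq2 and 58.9% with only the 6 libraries compared. Among all genes entered, 2157 of 18542 and 1441 of 17767 were higher in these fits. Each share was taken over the head-restricted genes with an adjusted p in that setting, so the denominators differ. The number higher at least 2-fold was 98 in the reported fit, 106 with DESeq2 and 122 with only the 6 libraries. Other reasons were not tested. Leaving out 1 replicate gave 1053 to 2207 higher and 900 to 2243 lower genes, 174 to 508 lower at least 2-fold, 13.2 to 32.2% of posterior genes lower and 15.1 to 57.9% of foregut-enriched genes lower. The difference in share of counts, cyclopamine minus control, was 0.607 percentage points for anterior, -3.75 for posterior and -0.387 for foregut-enriched genes. With lists at 4-fold, which hold fewer genes, it was 0.351, -2.92 and -0.0986, and as a share of TPM it was 0.38 for anterior genes. No named gene or difference in share changed sign. The balance of calls did turn: against control foregut it was 1763 higher and 1947 lower with DESeq2's size factors and 2157 and 2433 with DESeq2, and against BMS493 it was 2744 higher and 4557 lower with total counts alone.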

Other observations

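Called genes were spread over all levels of expression. Among 2552 genes under 1 CPM (counts scaled to library size) 3.88% were higher and 4.27% lower in cyclopamine foregut, and among 5752 genes at 16 to 64 CPM 14.1% were higher and 9.54% lower. At over 64 CPM the balance differed, with 7.53% of 3268 genes higher and 13% lower. Changes of at least 2-fold were concentrated at low levels, with 93 higher and 94 lower under 1 CPM and 15 and 9 above 64 CPM.

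The ratio of a gene's counts to its TPM gives its effective length relative to other genes. Over 5 groups of equal size, from the shortest to the longest genes, the median log2 fold change of cyclopamine over control foregut was 0.013, 0.012, 0.028, 0.018 and -0.023. In the longest group 10% were higher and 14.4% lower, and in the shortest group 8.78% were higher and 7.72% lower.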
